A study of Mus musculus with 14 samples.

Results

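Transcripts of 8 genes that mark proteins for destruction in muscle were followed in whole mouse hearts: the ubiquitin ligase genes Fbxo32, Trim63, Trim55, Trim54, Fbxo40, Nedd4 and Stub1, and the polyubiquitin gene Ubb. They were chosen by name and found in the deposited count table through their Ensembl identifiers, with GENCODE M21 pairing identifier and symbol, and all 8 were found among its 55487 rows. All 8 also passed the filter on low counts that left 15528 genes for testing. RNA came from 14 hearts of untreated male C57BL/6 mice. At 15 months of age there were 4 cardiac-specific p62 knockout hearts (KO, Myh6-Cre Sqstm1 fl/fl) and 4 wild-type hearts (WT), and at 2 months of age there were 3 KO and 3 WT hearts. Sqstm1 encodes p62, a receptor that binds ubiquitin-tagged cargo and hands it to autophagy, and Cre under the Myh6 promoter acts in heart muscle cells, so the other cells of the heart keep the gene. The labels do not say whether the WT mice carried Cre or the floxed alleles, nor whether hearts within a group went through separate handling, and p-values therefore measure only the spread between these samples, which may be technical.

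Ubiquitin is joined to a protein by an activating enzyme, a conjugating enzyme and a ligase, and the ligase chooses the substrate. Fbxo32 (atrogin-1, the substrate-binding F-box part of an SCF ligase) and Trim63 (MuRF1, a RING ligase of the thick filament and M-band) are the standard transcript markers of muscle wasting, induced in skeletal muscle by FoxO factors. Trim55 (MuRF2) and Trim54 (MuRF3) are close relatives of Trim63 that bind microtubules and the sarcomere, Fbxo40 encodes a muscle F-box protein that targets the insulin receptor substrate IRS1, Nedd4 encodes a HECT ligase of membrane proteins, and Stub1 (CHIP) is a ligase that works with Hsp70 and Hsp90. Ubb encodes ubiquitin as head-to-tail repeats that are cut into single units.

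The repeats of Ubb are shown because they bear on how well its reads can be placed. On GRCm38, transcript Ubb-201 holds 4 ubiquitin units of 228 bases each on the plus strand, the first at chr11:62552146-62552373 and the next at chr11:62552374-62552601. These 2 units are given here from the GENCODE M21 transcripts, with capitals at the 5 positions where they differ, an identity of 97.8%.
Ubb unit 1: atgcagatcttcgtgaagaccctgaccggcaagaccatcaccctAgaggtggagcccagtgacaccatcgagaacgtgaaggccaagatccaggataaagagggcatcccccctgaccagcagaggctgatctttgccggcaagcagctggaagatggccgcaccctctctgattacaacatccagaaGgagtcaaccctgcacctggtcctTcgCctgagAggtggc
Ubb unit 2: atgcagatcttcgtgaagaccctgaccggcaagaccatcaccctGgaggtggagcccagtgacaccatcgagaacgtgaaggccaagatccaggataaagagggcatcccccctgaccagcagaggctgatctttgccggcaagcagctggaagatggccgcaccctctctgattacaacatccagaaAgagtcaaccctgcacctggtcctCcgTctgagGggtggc
Cut into pieces of 50 bases, Ubb had 48.1% of its distinct pieces in common with other annotated genes, and Gm1821, a processed pseudogene, held most of them. Inside Ubb-201 itself, 35% of the pieces occurred more than once. How reads with several matching places were counted is not given in the sources used here, so the levels of Ubb below are uncertain as absolute values. The 5 genes that shared pieces with Ubb had together 0.6% to 1.2% of the count of Ubb in any heart. Of the 7 ligase genes, none had more than 0.744% of its pieces in common with another gene.

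The promoters of Trim63 and Trim54 are shown because these 2 relatives were the ligases with the smallest and the largest difference between ages in WT hearts. The windows are those of RefSeq on GRCm38.p6, with 250 bases before and 50 after the start site, both on the plus strand. Capitals mark 2 motifs, the FoxO core TGTTTAC and the E-box CANNTG, searched on both strands.
Trim63, chr4:134314870-134315169: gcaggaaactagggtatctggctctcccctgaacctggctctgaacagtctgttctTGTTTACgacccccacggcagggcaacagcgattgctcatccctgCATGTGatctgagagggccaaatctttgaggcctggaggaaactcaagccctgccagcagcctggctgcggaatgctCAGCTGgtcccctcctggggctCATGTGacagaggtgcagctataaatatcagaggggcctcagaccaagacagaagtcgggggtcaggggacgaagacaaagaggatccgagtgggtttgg
Trim54, chr5:31116362-31116661: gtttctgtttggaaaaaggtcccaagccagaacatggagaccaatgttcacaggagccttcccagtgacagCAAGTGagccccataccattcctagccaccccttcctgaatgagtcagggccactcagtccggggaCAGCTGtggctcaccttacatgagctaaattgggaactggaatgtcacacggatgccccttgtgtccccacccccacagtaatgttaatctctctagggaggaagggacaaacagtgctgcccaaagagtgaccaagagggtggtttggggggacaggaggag
The Trim63 window held 1 FoxO core, which began 194 bases before the start site (offset -194), and 3 E-boxes. The Trim54 window held 0 FoxO cores and 2 E-boxes. The FoxO core was found in 3.65% and the E-box in 72.3% of all 32851 windows of this length. RefSeq windows were at hand for 6 of the 8 genes, in 9 windows, of which 1 held a FoxO core and 8 an E-box. The Stub1 window held the only heat shock unit, GAANNTTC, which 7.86% of all windows contain. Fbxo32 and Trim55 had no window in the table.

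The genes lie on 8 chromosomes (GRCm38, GENCODE M21). Fbxo32 (ENSMUSG00000022358) is at chr15:58175879-58214932 on the minus strand, Trim63 (ENSMUSG00000028834) at chr4:134315120-134329629 on the plus strand, Trim55 (ENSMUSG00000060913) at chr3:19644474-19692421 on the plus strand and Trim54 (ENSMUSG00000062077) at chr5:31116712-31137630 on the plus strand. Fbxo40 (ENSMUSG00000047746) is at chr16:36963460-36990467 on the minus strand, Nedd4 (ENSMUSG00000032216) at chr9:72662346-72749852 on the plus strand, Stub1 (ENSMUSG00000039615) at chr17:25830505-25833404 on the minus strand and Ubb (ENSMUSG00000019505) at chr11:62551171-62553213 on the plus strand. Stub1 shares 1084 exon bases with Jmjd8 on the opposite strand. The kit marks strand, but the strand setting of the counting is not given in the sources used here, so reads of Stub1 and Jmjd8 may not have been told apart. Antisense genes that overlap exons of Trim54 (382 bases) and Fbxo32 (186 bases) had at most 9 counts in any heart, against at least 991 counts for Trim54 and 2544 for Fbxo32.

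The libraries held 20218992 to 30404416 counts, of which 27.5% to 46.0% fell on mitochondrially encoded genes. Sqstm1 averaged 21.3 ± 10.5 CPM in KO hearts and 201 ± 28.3 CPM in WT hearts at 15 months (SD, n = 4 each), and 16.4 ± 2.49 CPM in KO hearts and 162 ± 20.03 CPM in WT hearts at 2 months (SD, n = 3 each), so every library matched its label. CPM were computed from the counts and the library totals after TMM scaling. The 8 cardiac muscle markers were detected in every group, with summed levels of 32561 to 45526 CPM. A length slope was also taken for each library, the slope of its log2 CPM against log2 exon length after the mean over libraries was subtracted. It was positive in 6 of the 8 hearts at 15 months, up to 0.24, and negative in all 6 hearts at 2 months, down to -0.18. The libraries also differed in other ways. WT replicate 1 at 2 months stood apart with 637.6 CPM of the atrial light chain Myl7, against 0.06 to 0.08 CPM in the other 2 hearts of its group and at most 58.1 CPM in any other heart. Dbp, a clock output gene, had 85.9 to 105 CPM in KO hearts and 92.5 to 127 CPM in WT hearts at 15 months. At 2 months both replicate 3 hearts had 83.9 CPM (KO) and 71.4 CPM (WT), and the other 4 had 24.8 to 31.4 CPM.

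Trim54 was the only 1 of the 8 genes whose difference between ages passed the edgeR test, and it passed in WT hearts. Its levels were 128, 124, 112 and 97.7 CPM in the 4 WT hearts at 15 months, against 57.5, 59.2 and 61.4 CPM in the 3 WT hearts at 2 months. Every older WT heart was above every younger one, as for 8.6% of all genes tested. The lowest of the older was still well clear of the highest of the younger. Trim54 rose by 0.96 on the log2 scale (SE 0.14, 95% CI 0.66 to 1.25, 1.94-fold; edgeR's quasi-likelihood test, Benjamini-Hochberg adjusted p = 0.0044), with 4 of 4 older hearts higher, and ranked 18 of 15528 genes by p. It was the 1 call among the 8 genes in this comparison, in which 1.04% of all genes tested were called and 0.612% were called higher. The call held in 17 of 17 alternatives, with log2 changes of 0.88 to 1.04 and an adjusted p of at most 0.0309. Summed cardiac muscle markers were also higher in WT hearts at 15 months, 37437 to 45526 CPM, against 32561 to 37310.5 CPM at 2 months. The 8 markers did not move together: 5 had a log2 difference above 0 and 3 below (median 0.17), and 0 passed. Myh6 had the smallest p of them (log2 difference 1.09, edgeR adjusted p = 0.119). Summed macrophage markers were lower, 172 to 291 CPM against 352 to 413 CPM, with 6 of 7 below 0 (median -0.45). Of the fibroblast markers 7 of 7 had a log2 difference below 0 (median -0.73), with summed levels of 311 to 690 CPM at 15 months and 478 to 1228 CPM at 2 months. Of the atrial markers 4 of the 5 were tested and all 4 were below 0 (median -3.32), with summed levels of 2.6 to 275 CPM at 15 months and 90.9 to 1636 CPM at 2 months. Without WT replicate 1 at 2 months, the heart with the high Myl7, Trim54 changed by 0.95 (edgeR, adjusted p = 0.0184). Of 12 clock genes 10 had a log2 change with age above 0 in each genotype. Without both replicate 3 hearts at 2 months, whose Dbp was nearest that of the older hearts, Trim54 changed by 0.9999 in WT hearts (edgeR, adjusted p = 0.0288). Leaving these hearts out widened the gap in Dbp between ages. The part of the other markers and of the clock genes in the result was not tested. In whole hearts, fewer cells of a type and less RNA per cell cannot be told apart.

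**Figure D1:**
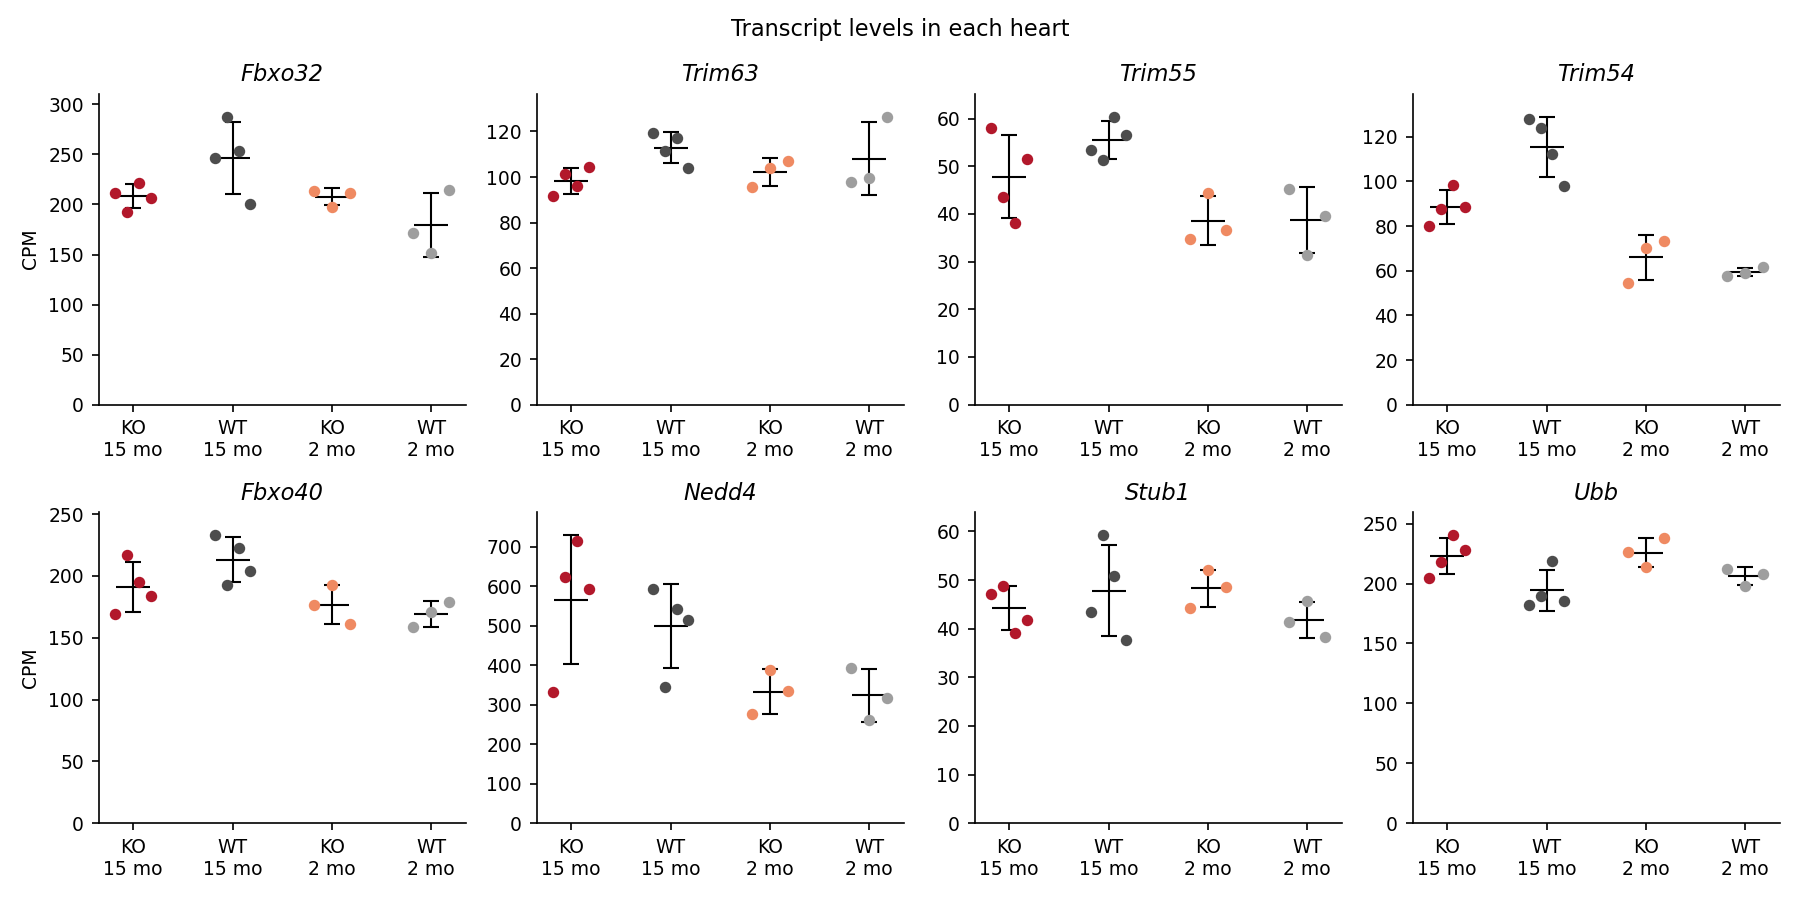
Each panel plots one gene in CPM (vertical axis, from 0) for each heart, in the groups KO 15 months, WT 15 months, KO 2 months and WT 2 months; points are hearts, the wide bar is the group mean and the narrow bars are ± 1 SD. Trim54 in WT hearts at 15 months lies between 97.7 and 128 CPM and does not overlap WT hearts at 2 months, which lie between 57.5 and 61.4 CPM, while the groups of Trim63 overlap throughout.

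In KO hearts Trim54 also stood higher at 15 months, without passing the test. It had 79.9, 87.6, 98.2 and 88.6 CPM in KO hearts at 15 months, against 54.5, 70.1 and 73.3 CPM in KO hearts at 2 months. The groups did not overlap, as for 20.1% of all genes in this comparison. The log2 difference was 0.43 (SE 0.14, 95% CI 0.14 to 0.72; edgeR, adjusted p = 0.0884), in a comparison that called 2.25% of genes. Without KO replicate 1 at 15 months, the heart with the highest mitochondrial share, the adjusted p was 0.0308 and the number of genes called over the whole table was 3523 in place of 349. DESeq2 gave an adjusted p of 0.0253. These were the 2 of 17 alternatives that passed. Over all 17 the log2 difference was 0.31 to 0.52 and the adjusted p 0.0253 to 0.51. The highest adjusted p came with the length slope as a covariate, where the log2 difference was 0.32.

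Set side by side, the older KO hearts had a lower mean of Trim54 than the older WT hearts, without passing the test. The values above give a mean of 88.6 ± 7.49 CPM in KO hearts and 115 ± 13.6 CPM in WT hearts at 15 months (SD, n = 4 each), and the groups met at their edges, where the highest KO heart (98.2 CPM) passed the lowest WT heart (97.7 CPM). The log2 difference, KO minus WT, was -0.38 (SE 0.12, 95% CI -0.65 to -0.12) with an unadjusted p of 0.00796, which ranked 67 of 15528 genes, and an edgeR adjusted p of 0.999. At 2 months the means were 65.9 ± 10.1 CPM in KO hearts and 59.4 ± 1.96 CPM in WT hearts (SD, n = 3 each), a log2 difference of 0.15 (SE 0.14). The difference between these KO effects, 15 minus 2 months, was -0.53 (SE 0.19, 95% CI -0.94 to -0.13; edgeR, unadjusted p = 0.0137, adjusted p = 0.9999). No gene was called in that comparison by edgeR, with 577 genes (3.72%) at an unadjusted p under 0.05, Trim54 and Fbxo32 among them, and DESeq2 called 1. Skeletal muscle markers, summed, were 1090 to 1212 CPM in KO hearts and 1316 to 1482 CPM in WT hearts at 15 months; their part in the result was not tested. Of these 8 markers (Myh1, Myh2, Myh4, Actn3, Mylpf, Tnnt3, Ckm and Acta1) 2 averaged at least 1 CPM in either group, and 3 were at 0 in every KO heart. The sums therefore rest on 2 genes in each group and do not measure skeletal muscle in the hearts. Acta1 had the smallest p of the list (log2 difference, KO minus WT, -1.16, edgeR adjusted p = 0.999).

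Trim63, the best known of the wasting markers, hardly varied. It had 91.5, 101, 96.1 and 105 CPM in KO hearts and 119, 111, 117 and 104 CPM in WT hearts at 15 months. At 2 months it had 95.5, 104 and 107 CPM in KO hearts and 97.9, 99.5 and 127 CPM in WT hearts. The groups overlapped in all comparisons, and the highest heart of all, WT replicate 3 at 2 months, was 1.38-fold above the lowest. Between ages the log2 difference was 0.06 in WT hearts (95% CI -0.20 to 0.32; edgeR, adjusted p = 0.776) and -0.06 in KO hearts (95% CI -0.31 to 0.20; edgeR, adjusted p = 0.794). Between genotypes, KO minus WT, it was -0.20 at 15 months (95% CI -0.44 to 0.04) and -0.08 at 2 months (95% CI -0.36 to 0.20). The bound farthest from 0 in these 4 intervals was -0.44.

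Fbxo32, the F-box partner of Trim63 in the wasting signature, had a log2 difference between ages above 0 in WT hearts and near 0 in KO hearts, and the test of that difference did not pass. Its levels were 246, 288, 253 and 200.3 CPM in WT hearts at 15 months, against 172, 152 and 215 CPM in WT hearts at 2 months. It had 212, 192, 222 and 207 CPM in KO hearts at 15 months, against 213, 198 and 212 CPM in KO hearts at 2 months. WT hearts were mostly higher when older, with 1 crossing between the groups, whereas the 7 KO hearts lay within a narrow band at both ages. The log2 difference between ages was 0.46 in WT hearts (SE 0.15, 95% CI 0.14 to 0.78; edgeR, adjusted p = 0.113) and 0.00 in KO hearts (SE 0.15, 95% CI -0.31 to 0.32). DESeq2 gave an adjusted p of 0.035 for the WT difference. KO minus WT was -0.25 at 15 months (SE 0.14) and 0.21 at 2 months (SE 0.16), and the difference between them was -0.46 (SE 0.21, 95% CI -0.90 to -0.01; edgeR, unadjusted p = 0.0466, adjusted p = 0.9999). WT replicate 3 at 2 months had the highest Fbxo32 and Trim63 of its group. Without it, KO minus WT at 2 months was 0.37 for Fbxo32 and 0.07 for Trim63. That heart and KO replicate 3 at 2 months also had more of the clock transcript Ciart, 16.3 to 20.2 CPM, against 0.657 to 1.2 CPM in the other hearts at 2 months. Without both, the log2 difference between ages was 0.62 in WT hearts and 0.03 in KO hearts (edgeR, adjusted p = 0.151 and 0.924). Leaving both out widened the gap between ages in mean Ciart, and the part of the clock genes was not tested.

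The ratio of Fbxo32 to Trim63 counts, which needs no scaling between libraries, was 1.90 to 2.31 in KO hearts and 1.93 to 2.59 in WT hearts at 15 months. At 2 months it was 1.90 to 2.23 in KO hearts and 1.53 to 1.75 in WT hearts. The 3 young WT hearts had the lowest ratios of all 14. This separation was not tested, and the share of gene pairs that separate in this way was not counted. Fbxo32 and Trim63 have 6976 and 2842 bases of exon, so differences in length slope between libraries do not cancel in the ratio.

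**Figure D2:**
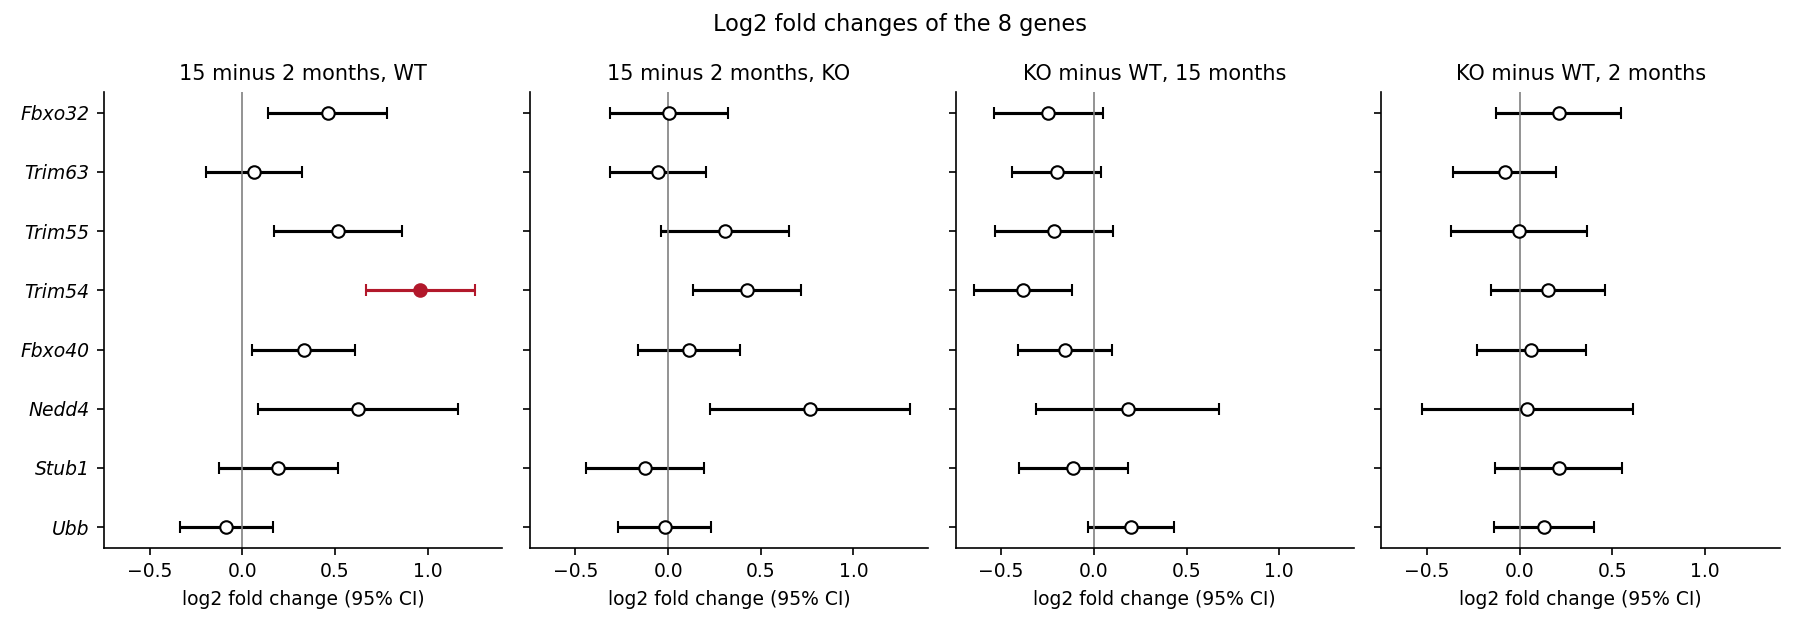
The panels plot the log2 fold change of each of the 8 genes (horizontal axis) with its 95% confidence interval, for 15 minus 2 months in WT and in KO hearts and for KO minus WT at 15 and at 2 months; the filled point marks an adjusted p under 0.05. Only Trim54 in WT hearts, at 0.96, is filled, and the KO minus WT changes lie between -0.38 and 0.21.

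Trim55, the remaining MuRF gene, had 53.4, 51.3, 60.4 and 56.6 CPM in WT hearts at 15 months, against 45.2, 31.4 and 39.5 CPM in WT hearts at 2 months. Again no older WT heart overlapped a younger one, a separation that 16.2% of all genes showed and 8.6% showed in the same direction. The log2 difference was 0.52 (SE 0.16, 95% CI 0.17 to 0.86; edgeR, adjusted p = 0.106; DESeq2, adjusted p = 0.0466). In KO hearts Trim55 had 57.9, 43.6, 38.1 and 51.4 CPM at 15 months, against 34.7, 44.4 and 36.6 CPM at 2 months. These groups overlapped, with a log2 difference of 0.31 (SE 0.16; edgeR, adjusted p = 0.229). KO minus WT was -0.22 at 15 months (SE 0.15) and -0.01 at 2 months (SE 0.17), both within the overlap of the groups. The clock genes given above accompanied this age difference too. Without both replicate 3 hearts at 2 months the difference was 0.55 in WT hearts (edgeR, adjusted p = 0.218) and 0.28 in KO hearts (edgeR, adjusted p = 0.421). Leaving these hearts out widened the gap in Dbp between ages, and the part of the clock genes was not tested.

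Fbxo40, the F-box gene of insulin signalling, had 233, 192, 222 and 204 CPM in WT hearts at 15 months, against 158, 171 and 179 CPM in WT hearts at 2 months. The WT groups did not overlap, as for 16.2% of all genes tested. The log2 difference was 0.33 (SE 0.13, 95% CI 0.05 to 0.61; edgeR, adjusted p = 0.155). In KO hearts it had 169, 217, 195 and 183 CPM at 15 months, against 177, 193 and 161 CPM at 2 months. These groups overlapped, with a log2 difference of 0.11 (SE 0.13). KO minus WT was -0.16 at 15 months (SE 0.12) and 0.06 at 2 months (SE 0.14).

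Trim54, Trim55 and Fbxo40 were thus the 3 of 8 genes whose WT groups did not overlap between ages, and all 3 were higher at 15 months, against 16.2% of all genes not overlapping and 8.6% not overlapping and higher. With age in WT hearts, 1 of the 8 genes had a log2 change below 0, against 51.7% of all genes tested. The median of the 8 was 0.40, against -0.02 over all genes, and 5 had an unadjusted p under 0.05, as did 23.8% of all genes. In KO hearts 3 of the 8 were below 0, against 49.4% of all genes, with a median of 0.06 against 0.01 over all genes, and 2 had an unadjusted p under 0.05, against 26.7% of all genes. Both age comparisons set different hearts against each other and share none. The KO minus WT comparisons use these same hearts again, so their signs and those of the age comparisons are not separate results. For KO minus WT, 6 of the 8 genes were below 0 at 15 months, against 48.3% of all genes, with a median of -0.18 against 0.01. At 2 months 2 of the 8 were below 0, against 50.3% of all genes, with a median of 0.10 against 0.00. In these comparisons 0 of the 8 genes passed the test by edgeR or DESeq2. The unadjusted p was under 0.05 for 1 of the 8 at 15 months, which was Trim54, against 3.97% of all genes, and for 0 at 2 months, against 3.18%. Over all genes edgeR called 0.00644% in each, the single gene being Sqstm1.

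Nedd4, the HECT ligase, was the most variable of the 8 genes. It had 333, 623, 714 and 593 CPM in KO hearts at 15 months, against 276, 388 and 335 CPM in KO hearts at 2 months. In WT hearts it had 593, 346, 543 and 514 CPM at 15 months, against 393, 261 and 316 CPM at 2 months. In each genotype 3 of the 4 older hearts were above all younger ones and 1 was among them. The log2 difference between ages was 0.77 in KO hearts (SE 0.25, 95% CI 0.23 to 1.30; edgeR, adjusted p = 0.0945) and 0.63 in WT hearts (SE 0.25, 95% CI 0.09 to 1.163; edgeR, adjusted p = 0.161). Without KO replicate 1 at 15 months the KO difference was 0.95 with an adjusted p of 0.0102, and DESeq2 on all hearts gave 0.0336.

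The levels of Nedd4 moved with the length slope of the libraries. Joined over its 10 annotated transcripts, Nedd4 has 10973 bases of exon, the most of the 8 genes. Its longest single transcript has 5499 bases, against 6976 bases for Fbxo32. The hearts with the lowest Nedd4 at 15 months, KO replicate 1 (333 CPM) and WT replicate 2 (346 CPM), were the 2 hearts of that age with a negative slope, -0.09 and -0.07. The highest, KO replicate 3 (714 CPM), had the highest slope of all, 0.24. With the slope as a covariate, the log2 difference between ages was 0.02 in KO hearts and 0.09 in WT hearts. With the same covariate Trim54 in WT hearts stood at 0.88, and Fbxo40 at 0.21 in WT hearts and -0.05 in KO hearts. Fbxo32 stood at 0.49 in WT hearts and 0.05 in KO hearts, and Trim55 at 0.56 in WT hearts and 0.36 in KO hearts. Neither Fbxo32 nor Trim55 had a smaller difference than without the covariate. Slope and age moved together in these libraries and cannot be fully told apart.

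**Figure D3:**
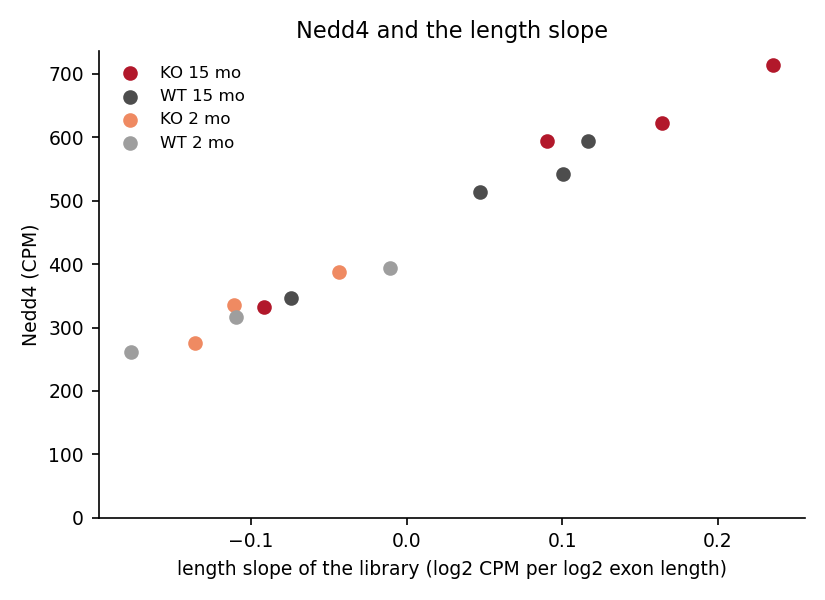
The plot gives the Nedd4 level of each heart in CPM (vertical axis, from 0) against the length slope of its library (horizontal axis, log2 CPM per log2 exon length), with the 4 groups in 4 colours. Hearts with a higher slope have more Nedd4, from 261 CPM in WT replicate 2 at 2 months to 714 CPM in KO replicate 3 at 15 months, and the 2 older hearts with a negative slope lie among the younger ones.

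Stub1, the chaperone-linked ligase, had 47.2, 48.8, 39.2 and 41.8 CPM in KO hearts and 43.4, 59.3, 50.9 and 37.6 CPM in WT hearts at 15 months. At 2 months it had 44.3, 52.0 and 48.6 CPM in KO hearts and 41.3, 45.7 and 38.2 CPM in WT hearts. All groups overlapped. KO minus WT was -0.11 at 15 months (95% CI -0.41 to 0.18) and 0.21 at 2 months (95% CI -0.13 to 0.55), and the change with age was -0.13 in KO hearts and 0.20 in WT hearts. Its antisense neighbour Jmjd8, which encodes a protein of the endoplasmic reticulum, lay at 12.7 to 17.8 CPM in KO hearts and 10.8 to 15.3 CPM in WT hearts at 15 months, lower than Stub1 in every group. Its KO minus WT differences were 0.19 at 15 months and 0.26 at 2 months, with an edgeR adjusted p of 0.999 and 0.9997.

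Ubb, the polyubiquitin gene, was slightly higher in KO hearts without passing the test. It had 205, 218, 240.4 and 228 CPM in KO hearts and 182, 189.9, 219 and 186 CPM in WT hearts at 15 months. At 2 months it had 226, 214 and 238 CPM in KO hearts and 212, 198 and 208 CPM in WT hearts. At 2 months the KO hearts were all above the WT hearts, as for 4.43% of all genes, while at 15 months the highest WT heart lay among the KO hearts. KO minus WT was 0.20 at 15 months (SE 0.11, 95% CI -0.03 to 0.43), 0.13 at 2 months (SE 0.13, 95% CI -0.14 to 0.40) and 0.16 averaged over both ages (SE 0.08, 95% CI -0.01 to 0.34; edgeR, unadjusted p = 0.0664, adjusted p = 0.999). With age it changed by -0.02 in KO hearts and -0.09 in WT hearts, both within the spread.

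Per length of exon, joined over all annotated transcripts, Ubb had the highest level of the 8 genes. Its mean was 126 CPM per kb over the 14 hearts, and no heart overlapped the next gene. Trim54 followed at 59.3 CPM per kb, then Nedd4 at 40.5, Trim63 at 37.1, Fbxo40 at 34.4 and Fbxo32 at 30.5 CPM per kb. The ranges of Trim54 and Nedd4 overlapped, as did those of the 4 genes from Nedd4 to Fbxo32, so their order is not fixed beyond their spread. The order also depends on the length used. Nedd4 and Trim63 have 10973 and 2842 bases of joined exon, but longest single transcripts of 5499 and 1886 bases. For Trim54 these lengths are 1436 and 1434 bases. Stub1 (17.8 CPM per kb) and Trim55 (17.3 CPM per kb) were lowest and overlapped with each other. Among the 3 MuRF genes the order on joined exon length was Trim54, Trim63, Trim55 in every group mean. The means ran from 61.7, 34.6 and 17.96 CPM per kb in KO hearts at 15 months to 41.4, 38.0 and 14.6 CPM per kb in WT hearts at 2 months.

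**Figure D4:**
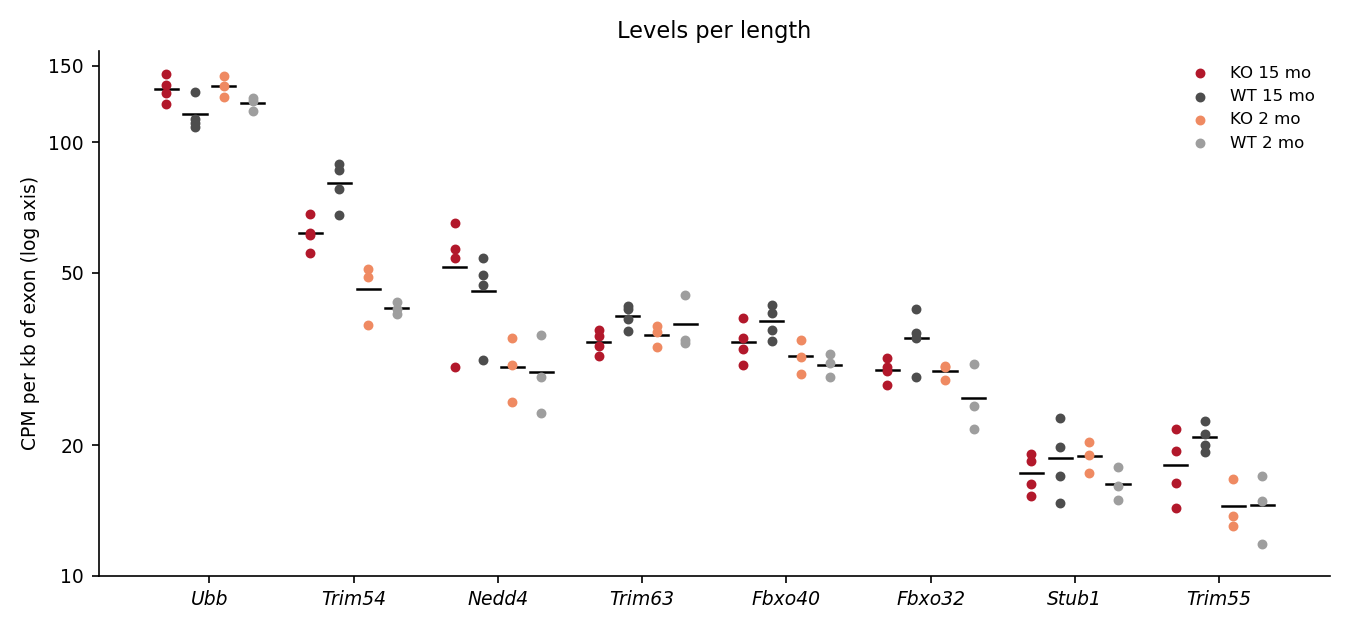
The plot gives CPM per kb of exon joined over all annotated transcripts (vertical axis, log scale) for each heart. The 8 genes are in order of their mean, and within each gene the 4 groups run from KO 15 months to WT 2 months. Bars are group means. Ubb stands alone near 126, Trim54 reaches its highest mean, 80.4, in WT hearts at 15 months, and Stub1 and Trim55 lie lowest.

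The 8 genes differed in their spread within groups. The within-group SD of log2 CPM was 0.09 for Ubb, lower than in all but 2.06% of the 7440 genes with a mean of at least 10 CPM. It was 0.12 for Trim63, with 7.1% of those genes lower, and 0.13 for Fbxo40, with 9.58% lower. Trim54 (0.16), Fbxo32 (0.17), Stub1 (0.19) and Trim55 (0.21) lay below the median of 0.22. Nedd4, at 0.37, had 81.4% of the genes below it. The 7440 genes were not matched for level, and counting error widens this SD more at low counts.

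Across the 14 hearts, Fbxo32 and Trim63 had a Pearson r of 0.48 (permutation p = 0.0804, adjusted p = 0.250 over the 28 pairs of the 8 genes) and a Spearman rho of 0.44 (permutation p = 0.113, adjusted p = 0.425). Without the 2 hearts farthest from the median of Fbxo32 r was 0.50, and with the group means removed it was 0.55. Trim54 went with Fbxo40 (r = 0.75, permutation p = 0.00229, adjusted p = 0.0321; rho = 0.74, permutation p = 0.00325, adjusted p = 0.091) and with Fbxo32 (r = 0.73, permutation p = 0.00223, adjusted p = 0.0321; rho = 0.62, permutation p = 0.0195, adjusted p = 0.130). Without the 2 hearts farthest from the median of the first gene r was 0.70 for Trim54 with Fbxo40 and 0.63 for Fbxo32 with Trim54. With the group means removed r was 0.21 for Trim54 with Fbxo40 and 0.40 for Fbxo32 with Trim54. The permutations shuffled all 14 hearts without regard to the 4 groups, so the p-values of the pairs also reflect differences between groups. The other 25 pairs had an adjusted Pearson p above 0.05.

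**Figure D5:**
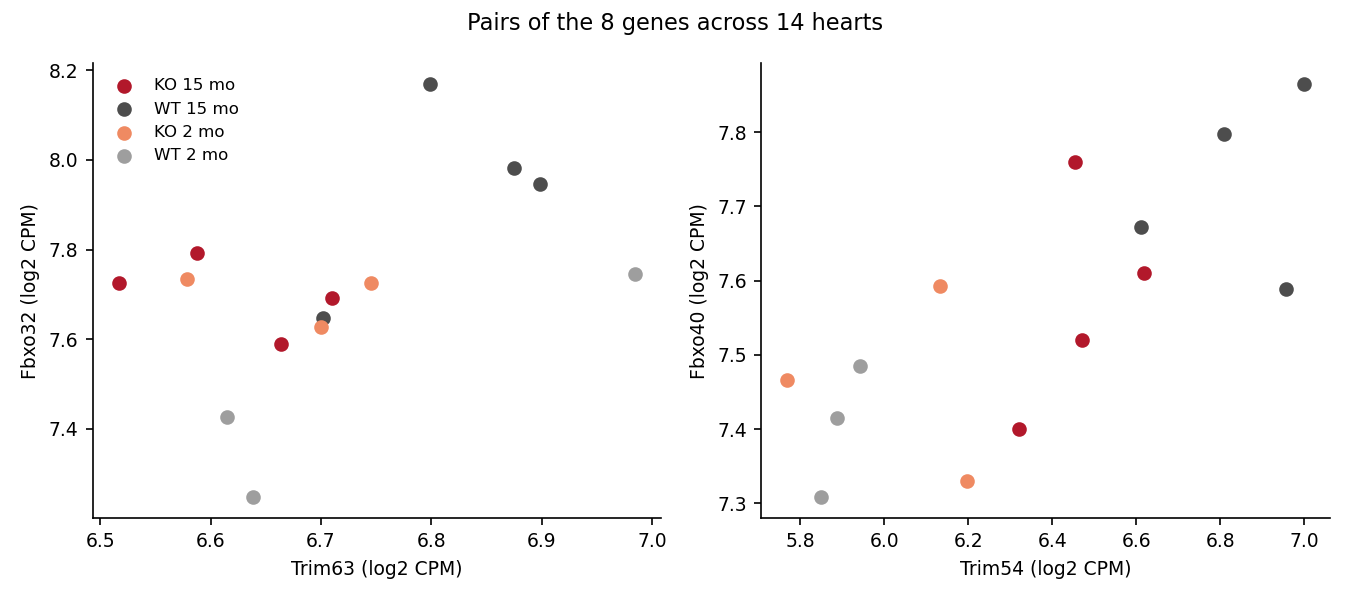
The left plot sets Fbxo32 against Trim63 and the right plot Fbxo40 against Trim54, all in log2 CPM, for the 14 hearts in 4 colours by group. On the right 3 of the 4 WT hearts at 15 months lie farthest along the Trim54 axis, the other (97.7 CPM) lies just short of the highest KO heart (98.2 CPM), and the WT hearts at 2 months lie low on both axes (r = 0.75), while on the left the hearts scatter more (r = 0.48).

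By the root mean square difference of log2 CPM over the 14 hearts, after centring each gene, the profiles most like that of Fbxo32 among 11563 protein-coding genes were those of Nfe2l1 (0.09), D17Wsu92e (0.11) and Dvl1 (0.11). Fbxo32 itself deviated from its mean by 0.22 on that measure, and Trim63 was 0.19 away from it. The profiles most like that of Trim63, which deviated by 0.13, were those of Tomm40 (0.09), Pi4k2a (0.09) and Stt3b (0.09). A gene that varies little is near many others that vary little, so these distances are a description only.

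Other genes of the system were read from lists. Of 29 other muscle ubiquitin ligases, 0 passed the edgeR test for KO minus WT at either age. With age, 0 rose and 1 fell in KO hearts, and 0 passed in WT hearts, with a median log2 change of 0.16 in KO hearts and 0.23 in WT hearts. Over all genes tested 2.25% were called in KO hearts and 1.04% in WT hearts, with medians of 0.01 in KO hearts and -0.02 in WT hearts, and 0.00644% were called for KO minus WT at each age; the lists below have the same background. A single call in a list of this size is near that share. The gene that fell was Fbxl22, which encodes a sarcomeric F-box protein and had 14.3 to 39.5 CPM in KO hearts at 15 months, against 56.4 to 64.7 CPM in KO hearts at 2 months (log2 change -1.25, SE 0.30, adjusted p = 0.0434). This call held in 6 of 17 alternatives, and with the length slope as a covariate the change was -0.57. Smurf1, a HECT ligase of Smad signalling, had the smallest p in WT hearts, with 32.5 to 42.4 CPM at 15 months and 25.0 to 26.9 CPM at 2 months (log2 difference 0.56, edgeR adjusted p = 0.0925).

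Of 21 other genes for ubiquitin and its activating and conjugating enzymes, and of 19 deubiquitinases, 0 passed in any of the 6 comparisons. The medians with age were -0.17 in KO hearts and -0.22 in WT hearts for the first list, and 0.18 in KO hearts and 0.36 in WT hearts for the deubiquitinases. Ube2a, a conjugating enzyme, had log2 differences of -0.75 in KO hearts (adjusted p = 0.0631) and -0.73 in WT hearts (adjusted p = 0.0844) by edgeR. The deubiquitinases with the smallest p were Usp7 in KO hearts (0.50, adjusted p = 0.0637) and Usp15 in WT hearts (0.47, adjusted p = 0.101).

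Of 30 genes of FoxO, insulin and glucocorticoid signalling, 0 passed in any comparison, with medians with age of 0.10 in KO hearts and 0.12 in WT hearts. These pathways act upstream of Fbxo32 and Trim63 in skeletal muscle, but the list also holds targets of the pathways. Pdk4, a FoxO target that inhibits pyruvate dehydrogenase, had 372 to 1773 CPM in KO hearts and 236 to 714 CPM in WT hearts at 15 months (log2 difference 1.164, SE 0.47, edgeR adjusted p = 0.999). Its groups overlapped and its KO spread was wide. Ddit4, an inhibitor of mTORC1, had 9.69 to 22.3 CPM in WT hearts at 15 months, against 30.2 to 46.0 CPM in WT hearts at 2 months (log2 difference -1.46, edgeR adjusted p = 0.0564). Mstn, which encodes myostatin, had 0.241 to 3.93 CPM in KO hearts at 15 months, against 0.0505 to 0.283 CPM in KO hearts at 2 months (log2 difference 3.58, edgeR adjusted p = 0.053), with overlap between the groups.

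Of 20 sarcomere substrates and partners of the ligases, 1 fell with age in each genotype and 0 passed for KO minus WT, with medians with age of 0.12 in KO hearts and 0.25 in WT hearts. The gene was Myoz2, a Z-disc protein that binds calcineurin, with 474 to 927 CPM in KO hearts at 15 months, against 1347 to 1664 CPM in KO hearts at 2 months (log2 change -1.17, SE 0.24, edgeR adjusted p = 0.0274). In WT hearts it had 578 to 753 CPM at 15 months, against 859.8 to 1713 CPM at 2 months (log2 change -1.12, SE 0.24, edgeR adjusted p = 0.0432). The calls held in 7 of 17 alternatives in KO hearts and 6 of 17 in WT hearts, and with the length slope as a covariate the changes were -0.62 in KO hearts and -0.64 in WT hearts. Of 18 chaperone partners of Stub1, 0 passed, with medians with age of -0.01 in KO hearts and -0.14 in WT hearts. Dnajb1, an Hsp40, had the smallest p in WT hearts with age (-0.90, adjusted p = 0.0672) and Bag1, an Hsp70 cofactor, in KO hearts (-0.72, adjusted p = 0.066).

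Of 12 clock genes, 1 rose with age in each genotype, the repressor gene Bhlhe41, and 10 had a log2 change above 0 in each, with medians of 0.52 in KO hearts and 0.35 in WT hearts. Dbp had log2 differences of 1.03 in KO hearts (edgeR, adjusted p = 0.111) and 1.30 in WT hearts (edgeR, adjusted p = 0.094). Dbp thus did not pass in either genotype. Bhlhe41 had 39.3 to 54.9 CPM in KO hearts at 15 months, against 15.3 to 23.2 CPM in KO hearts at 2 months (log2 change 1.14, edgeR adjusted p = 0.0264). The log2 change of Bhlhe41 was 1.09 in WT hearts (edgeR adjusted p = 0.0374). The calls of Bhlhe41 held in 10 of 17 alternatives in KO hearts and 9 of 17 in WT hearts.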

How the data were processed

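Per the labels' protocols, total RNA of 14 hearts was made into libraries with a stranded kit that removes ribosomal RNA. The file the authors deposited holds raw counts, the integer number of reads on each of 55487 Ensembl identifiers. Per the submitters' processing notes, DESeq2 1.26.0, featureCounts 1.6.3, STAR 2.7.3a and cutadapt 1.16 were used, with the build GRCm38. No source used here gives the annotation release, the strandedness set for counting, or the handling of multiply mapping reads. GENCODE M21 held 55227 of the identifiers and gave symbols, positions and exon lengths.

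The test was that of edgeR 4.0.16 (R 4.3.3): filterByExpr (minimum count 10, minimum total 15), which left 15528 genes, TMM scaling, a robust quasi-likelihood fit of 4 group means to all 14 libraries, and Benjamini-Hochberg adjustment over all genes with a threshold of 0.05. The SE is the size of a log2 change divided by the square root of F. Correlations used 100000 permutations of log2 CPM (prior count 2). DESeq2 1.42.0 and limma 3.58.1 were alternatives. The scripts were tested on simulated data with 200 changed genes. No library repeated another: the lowest chi-square per degree of freedom between libraries was 17.9. Totals, given above, limit precision to counting error at least. Columns that matched no sample numbered 0.

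The genes and lists were chosen with earlier results of these data known. Named were the 8 genes, Sqstm1, per list and comparison up to 3 genes past the threshold or else the one with the smallest p, the 3 nearest profiles of Fbxo32 and of Trim63, and overlapping genes. Some genes of the lists are not reported here. Motifs were searched in RefSeq windows. The calls of list genes under the alternatives were added after the data were seen.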

Additional observations from a re-analysis of the deposited data

How the results depend on the processing

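The 48 changes of the 8 genes kept their sign and their side of the threshold under most alternatives: 874 of the values did so, 6 passed the threshold newly, and 13 of the 48 changes reversed sign at least once. Trim54 with age in WT hearts passed throughout. DESeq2 called 3 of the 8 genes with age in WT hearts and 2 in KO hearts, in place of 1 and 0, and leaving out single hearts gave 0 to 2 of the 8 with age in KO hearts. Over all genes, KO minus WT at 2 months gave 3 genes with no filter on low counts, 2 when a mean of 1 CPM was required, 7 with DESeq2 and 5 with the length slope as a covariate, in place of 1. At 15 months it gave 7 with DESeq2, 2 with only the groups compared and 1 to 3 without single hearts, and averaged over ages 5 with DESeq2. With age in WT hearts (161 genes) DESeq2 gave 1100, only the groups compared 86, 43 without both replicate 3 hearts at 2 months, and 38 to 511 without single hearts, the lowest without WT replicate 2 and the highest without WT replicate 1 at 2 months. With age in KO hearts (349 genes) DESeq2 gave 1622, only the groups compared 134, the length slope 86, 69 without both replicate 3 hearts at 2 months, and 49 to 3523 without single hearts, the lowest without KO replicate 1 at 2 months and the highest without KO replicate 1 at 15 months. The difference between the KO effects gave 1 gene with DESeq2 and 0 to 1 without single hearts. The causes were not tested.

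Hearts with equal replicate numbers had deviations that correlated between -0.44 and 0.32. Both replicate 3 hearts at 2 months, which share high Ciart and Dbp, correlated at 0.31. The WT replicate 2 hearts of the 2 ages correlated at 0.32. Hearts with different numbers were not compared, so these values cannot decide whether equal numbers pair the hearts. With a replicate block 55 genes were called with age in WT hearts and 70 in KO hearts, and Trim55 for KO minus WT at 2 months was 0.000599 in place of -0.01. Small changes crossed 0. For KO minus WT at 2 months, the values without both replicate 3 hearts were 0.0217 for Trim63 and 0.0522 for Trim55, and without single hearts they were -0.14 to 0.0659 for Trim63, -0.13 to 0.13 for Trim55, -0.000243 to 0.13 for Fbxo40 and -0.0891 to 0.21 for Nedd4. At 15 months Nedd4 was -0.0301 with the length slope, and Stub1 -0.20 to 0.00925 without single hearts. Averaged over ages, without both replicate 3 hearts, Fbxo32 was 0.0549 and Fbxo40 0.0121, and Fbxo32 was -0.0702 to 0.0668 without single hearts. With age in KO hearts, Ubb was 0.00327 with no filter, 0.0332 without both replicate 3 hearts and -0.0569 to 0.0202 without single hearts, Fbxo32 was -0.00428 when a mean of 1 CPM was required and -0.0286 to 0.0409 without single hearts, and with the length slope Fbxo40 was -0.0489 and Stub1 0.0167. The difference between the KO effects for Nedd4 was -0.071 with the length slope and -0.025 to 0.32 without single hearts. The correlation of Fbxo32 with Trim63 was 0.55 with group means removed and 0.41 to 0.57 without single hearts. The unadjusted permutation p was under 0.05 in the first and in the highest. With group means removed, that p made no allowance for the means taken out, so it cannot decide whether the correlation within groups passes 0.05.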
